A study of Mus musculus with 6 samples.

Results

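Unc5b, Lhfpl2, Rin1 and Samd5 are 4 genes of 54146 in the deposited count files, and all 4 were among the 17308 genes with enough counts to test. They were matched on the gene symbol given in the files. They had been selected on these same counts, by a large difference between the labelled groups with little spread between libraries, so their differences and spreads are a description here and carry no test. Messenger RNA was sequenced from whole kidneys of 12-week-old (postnatal day 84) mice of strain B6C3F1/J. There were 3 libraries with the label Tfam f/f, whose mice carry a floxed Tfam gene and, per the series' design, no Cre. The other 3 had the label KspCre Tfam f/f, whose mice carry the same floxed gene and the Ksp-Cre transgene. Ksp-Cre is driven by the promoter of Cdh16, the gene of kidney-specific cadherin, and acts in tubule epithelium, so the deletion is not meant to reach other kidney cells. The labels do not say whether each library is its own animal, so the spread and the p-values below are between these libraries and may be technical.

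The 4 genes encode proteins of different kinds. Unc5b encodes a membrane receptor for netrins, secreted guidance proteins, and is known from blood vessel patterning and as a dependence receptor that can signal cell death when it has no ligand. Lhfpl2 encodes a membrane protein of the LHFPL family, which spans the membrane several times. Rin1 encodes an effector of RAS that activates the endosomal GTPase RAB5 and the ABL tyrosine kinases. Samd5 encodes a small protein with a sterile alpha motif, a protein interaction domain also found in Eph receptors.

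The targeted gene went against the labels. Tfam had 30.3, 33.6 and 23.2 normalized CPM (a gene's counts relative to its library's total, which was scaled with a TMM factor) under the Tfam f/f label. It had 63.1, 63.5 and 61.4 under the KspCre Tfam f/f label, a 2.15-fold higher level. The names of the deposited files bear the letters WT for the KspCre Tfam f/f label and MV for the Tfam f/f label, with no key to the letters. Every direction below is therefore between labels, not between known genotypes. Gene counts totalled 19024208 to 34821537 under the Tfam f/f label and 30348281 to 48899266 under the KspCre Tfam f/f label. The kidney markers Slc34a1, Umod, Slc12a3, Aqp2 and Cdh16 were all present, with means of 113 to 1870 and 92.5 to 6170 normalized CPM in the groups in that order.

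Unc5b (ENSMUSG00000020099.8) lies on chromosome 10, minus strand, at 60762593 to 60831581 in mm10. Samd5 (ENSMUSG00000060487.7) lies on the same strand of chromosome 10, at 9622936 to 9675208. Lhfpl2 (ENSMUSG00000045312.12) is on the plus strand of chromosome 13, at 94057796 to 94195409, and Rin1 (ENSMUSG00000024883.7) on the plus strand of chromosome 19, at 5050481 to 5057071. Rin1 is the shortest of them, with a span of 6591 bases against 52273 to 137614 for the other 3. Of the annotated genes, 1 overlaps the span of each of Unc5b, Lhfpl2 and Samd5, none of them overlaps an exon of a member, and none overlaps Rin1. The overlapping genes had 0.11 normalized CPM or less in every library.

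The 250 bases before the start of 3 members are shown because these genes, unlike Rin1, share a GC-rich start with copies of GGGCGG, the SP1 motif. The choice of the members did not use sequence, but it did use their counts, so the feature may not be independent of it. The windows compared below were not limited to genes with enough counts to test. How common such starts are among those genes was not tested. The sequences are RefSeq's for GRCm38.p6, 5′ to 3′ on the gene's strand, and capitals mark the matches to the 11 motifs searched, on either strand (CCGCCC is GGGCGG read from the other strand).
Unc5b, chr10:60831582-60831831, minus strand: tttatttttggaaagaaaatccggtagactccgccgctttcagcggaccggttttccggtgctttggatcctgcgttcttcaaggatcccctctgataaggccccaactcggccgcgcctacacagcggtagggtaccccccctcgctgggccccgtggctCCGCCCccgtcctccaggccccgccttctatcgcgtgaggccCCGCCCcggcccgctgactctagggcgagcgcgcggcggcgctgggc
Lhfpl2, chr13:94057546-94057795, plus strand: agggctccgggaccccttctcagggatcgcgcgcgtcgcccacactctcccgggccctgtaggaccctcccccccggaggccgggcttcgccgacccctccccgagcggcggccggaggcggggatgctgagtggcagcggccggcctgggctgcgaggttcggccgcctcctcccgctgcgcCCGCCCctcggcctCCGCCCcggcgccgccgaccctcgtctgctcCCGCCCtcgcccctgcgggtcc
Samd5, chr10:9675209-9675458, minus strand: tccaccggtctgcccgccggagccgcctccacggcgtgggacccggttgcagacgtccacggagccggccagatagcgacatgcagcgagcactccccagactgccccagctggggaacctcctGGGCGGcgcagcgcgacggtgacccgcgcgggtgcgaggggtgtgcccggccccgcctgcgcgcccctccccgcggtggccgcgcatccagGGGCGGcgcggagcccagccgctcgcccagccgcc
GC content was 66.8% for Unc5b, 80% for Lhfpl2 and 78.4% for Samd5, where the median of 32841 windows of the same length was 52.4%. The windows held 27, 34 and 35 CpG dinucleotides, more than 91.4%, 96.5% and 97.0% of all windows did. GGGCGG occurred 2 times in the window of Unc5b, 3 times in that of Lhfpl2 and 2 times in that of Samd5, and in 32.7% of all windows. The window of Rin1 lies inside an exon of another annotated transcript of the gene and is not shown. Its GC content was 58.0% and it held 6 CpG dinucleotides, at the median of all windows, and no GGGCGG. It matched GGAATG (TEAD, in 12.6% of windows) and TGACNNNGC (antioxidant element, in 10.2%). The other 8 motifs matched in no member: TATAAA (the TATA box, 12.4% of windows), CCAAT (NFY, 33.9%), the AP-1 motif (6.75%), TGACGTCA (CRE, 1.55%), TGATGNAA (C/EBP-ATF, 3.45%), CACGTG (E-box, 6.02%), the NF-kappaB motif (1.41%) and the p53-like motif (0.49%). None of the matches in a member overlapped another.

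Unc5b, the netrin receptor, had 146, 155 and 154 normalized CPM under the Tfam f/f label. It had 13.9, 13.9 and 14.6 under the KspCre Tfam f/f label. The values within each group lay close together and the groups were far apart: the lowest labelled Tfam f/f library was 10 times the highest of the others. The means were 152 ± 4.73 and 14.1 ± 0.406 (SD, n = 3 each). The fitted difference was 10.7-fold (log2 fold change -3.42, SE 0.09, labelled KspCre Tfam f/f minus labelled Tfam f/f).

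Lhfpl2 had 62.3, 61.1 and 60.3 normalized CPM under the Tfam f/f label, and 6.97, 5.87 and 5.99 in the other group. The labelled Tfam f/f libraries were nearly equal, and the groups did not overlap. The means were 61.2 ± 1.01 and 6.28 ± 0.606 (SD, n = 3 each), 9.73-fold apart (log2 fold change -3.28, SE 0.10).

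Rin1, the RAS effector, had 42.1, 35.3 and 40.3 normalized CPM under the Tfam f/f label. Under the KspCre Tfam f/f label it had 1.97, 2.54 and 2.52, from 84, 105 and 66 counts. Replicate 2 was the lowest of the former group, replicate 1 the lowest of the latter, and the groups did not overlap. The means were 39.3 ± 3.52 and 2.34 ± 0.32 (SD, n = 3 each), 16.8-fold apart (log2 fold change -4.07, SE 0.15).

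Samd5 differed most. It had 55.0, 61.5 and 76.1 normalized CPM under the Tfam f/f label and 2.79, 2.15 and 2.59 under the KspCre Tfam f/f label, the latter from 119, 89 and 68 counts. Replicate 3 stood above the other libraries of its group, and even the lowest was 19.7 times the highest labelled KspCre Tfam f/f library. The means were 64.2 ± 10.8 and 2.51 ± 0.33 (SD, n = 3 each), 25.5-fold apart (log2 fold change -4.67, SE 0.17).

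**Figure D1:**
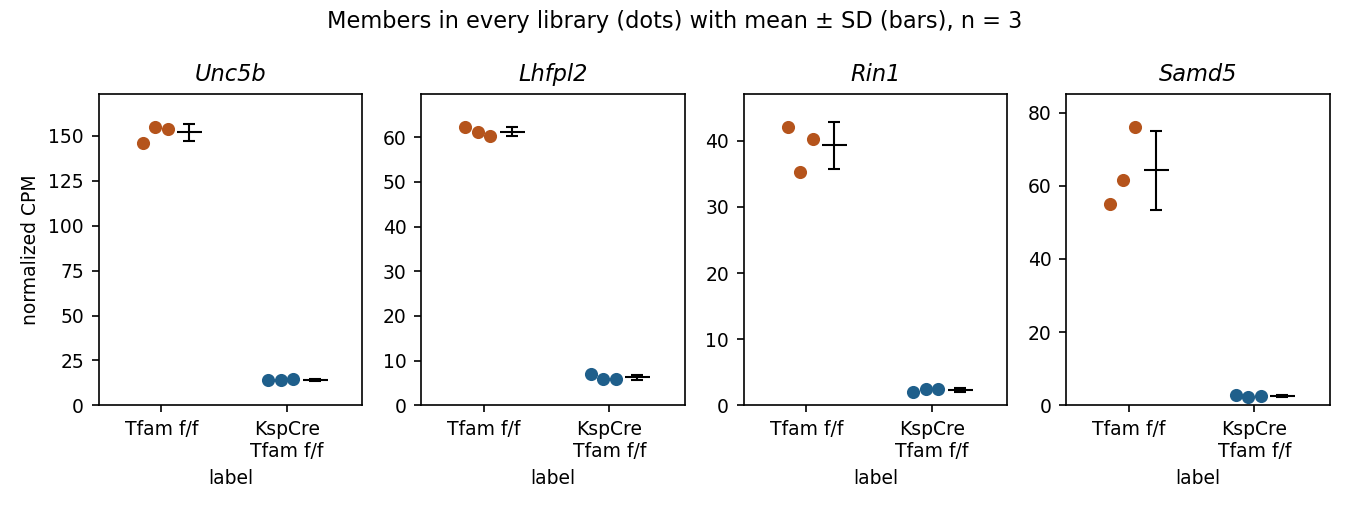
Normalized CPM of each member in every library (dots; orange for labelled Tfam f/f, blue for labelled KspCre Tfam f/f), with the mean and SD of 3 libraries beside them. In each panel the 3 labelled Tfam f/f libraries lie above all others, by at least 8.65 times (Lhfpl2).

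All 4 members had non-overlapping groups and lower levels under the KspCre Tfam f/f label. This was what they were chosen for, and 32.1% of all tested genes had the same pattern. With edgeR's quasi-likelihood test and Benjamini-Hochberg adjustment below 0.05, 46.2% of the tested genes were called, 21.3% higher and 24.9% lower under the KspCre Tfam f/f label. Differences as large were rarer: 255 called genes were at least as far lower there as Lhfpl2, the least changed member. In whole kidney, fewer cells of a type and less RNA per cell cannot be told apart.

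Per length of annotated exons, Unc5b had the highest level of the 4 in both groups, 24.2 ± 0.756 and 2.26 ± 0.0649 normalized CPM per kilobase (SD, n = 3 each, labelled Tfam f/f first). In the libraries labelled Tfam f/f, Samd5 followed at 9.27 ± 1.56, then Rin1 at 8.14 ± 0.73 and Lhfpl2 at 7.28 ± 0.12. Neighbours in that order from Samd5 down overlapped: Samd5 ranged from 7.94 to 11, Rin1 from 7.33 to 8.74 and Lhfpl2 from 7.17 to 7.41. Under the KspCre Tfam f/f label, Lhfpl2 was next after Unc5b at 0.746 ± 0.072, followed by Rin1 at 0.486 ± 0.0665 and Samd5 at 0.363 ± 0.0477. There Lhfpl2 (0.698 to 0.829) lay above Rin1 (0.409 to 0.526) in every library, and Rin1 lay above Samd5 (0.311 to 0.404).

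The 4 members were not equally even. In the libraries labelled Tfam f/f, the coefficient of variation (SD as a percentage of the mean) was 1.66% for Lhfpl2, 3.12% for Unc5b, 8.97% for Rin1 and 16.8% for Samd5. Counting error alone would give 2.39%, 1.52%, 2.98% and 2.34% in that order. Of the 255 genes at least as far lower, the members among them, 0 had a smaller SD of log2 CPM in this group than Lhfpl2, 1 had a smaller one than Unc5b, 11 than Rin1 and 29 than Samd5. Their median SD was 0.584, against 0.0238, 0.0454, 0.132 and 0.238 for the members in that order. Against genes of similar level (within 1 log2 unit), whatever their difference, 1.38% had a smaller SD than Lhfpl2, 4.28% than Unc5b, 31.3% than Rin1 and 65.5% than Samd5. The choice of the members used these spreads, so the ranks describe them and show nothing more.

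Under the KspCre Tfam f/f label, the coefficients of variation were 2.87% for Unc5b, 9.65% for Lhfpl2, 13.7% for Rin1 and 13.1% for Samd5. Counting error alone gives 4.49%, 6.8%, 11% and 10.7% there. The evenness within the labelled Tfam f/f group leans on the scaling. On library totals alone, without TMM factors, the coefficients of variation in that group were 8.49% for Unc5b, 6.34% for Lhfpl2, 13.9% for Rin1 and 23.7% for Samd5. The TMM factors of those libraries were 1.14, 1.09 and 1.25.

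**Figure D2:**
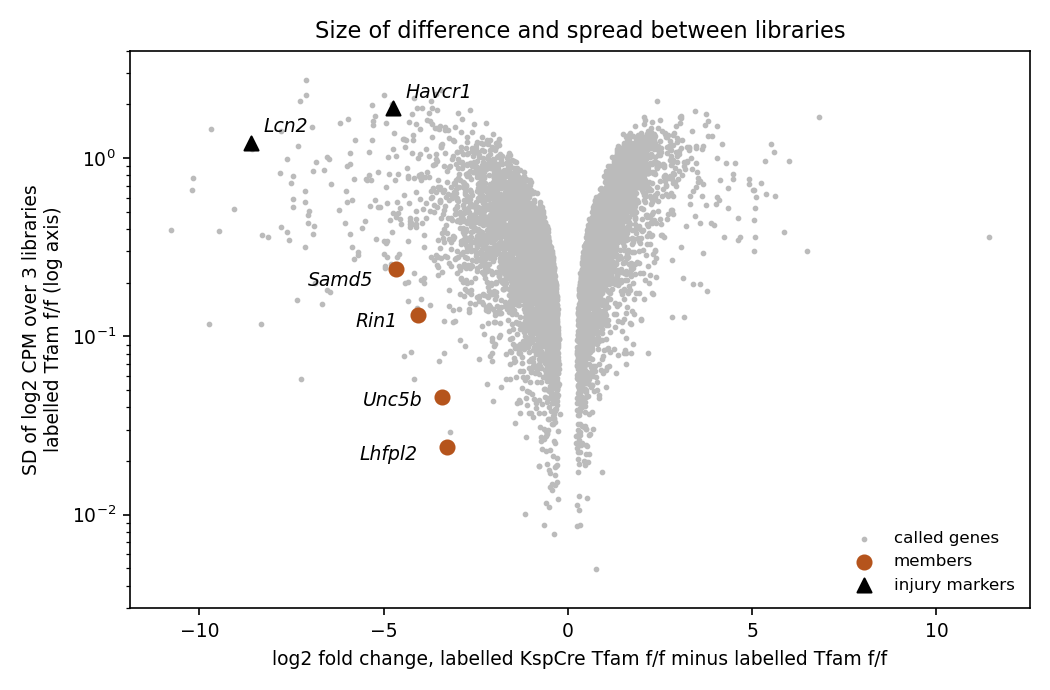
Each point is a called gene, with its log2 fold change on the horizontal axis and the SD of its log2 CPM over the 3 libraries labelled Tfam f/f on the vertical (log) axis; 4 called genes with an SD below 0.003 are left out. The members (orange) lie on the left. Lhfpl2 (0.0238) and Unc5b (0.0454) are at the lower edge of the 255 called genes at least as far lower as Lhfpl2. Rin1 (0.132) and Samd5 (0.238) are above that edge. The injury markers Havcr1 and Lcn2 (triangles) lie at the top, at 1.9 and 1.22.

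Havcr1 and Lcn2, the injury markers against which the members were set, varied far more. Havcr1, which encodes the injury molecule KIM-1, had 31.7, 9.88 and 138 normalized CPM under the Tfam f/f label and 2.14 to 2.28 in the others. Lcn2, which encodes the secreted injury marker NGAL, had 1070, 321 and 1640, and 2.3 to 2.9 in the others. For both, replicate 2 was lowest and replicate 3 highest among the libraries labelled Tfam f/f, with a 13.9-fold range for Havcr1 and 5.13-fold for Lcn2. The range was 1.06-fold for Unc5b, 1.03-fold for Lhfpl2, 1.19-fold for Rin1 and 1.38-fold for Samd5. Rin1 shared the low value in replicate 2, and Samd5 the high value in replicate 3. Not every injury marker varied as much as Havcr1 and Lcn2: Krt8 had 300, 198 and 294 normalized CPM under the Tfam f/f label.

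Markers of other cells and of injury were read in the same libraries. For comparison, 46.2% of all tested genes were called, 21.3% higher and 24.9% lower under the KspCre Tfam f/f label. Of the 6 kidney tubule and podocyte markers, 4 were higher under the KspCre Tfam f/f label and 2 did not pass, with sums of 4130 to 8620 and 15200 to 15900 normalized CPM. All 12 tubular injury markers were lower under the KspCre Tfam f/f label. Their summed level was 4010 to 15800 normalized CPM under the Tfam f/f label and 1030 to 1120 in the others. Of 10 macrophage markers, 9 were lower there and Csf1r did not pass, with sums of 193 to 624 and 141 to 156. Among endothelial markers, which bear on Unc5b as a gene of blood vessels, 0 of 12 passed the edgeR test. In the same list, 1 had an unadjusted p under 0.05, and DESeq2 and limma voom each called 0. Their sums were 293 to 519 and 438 to 453. Of 10 mural cell and fibroblast markers, Rgs5, Cspg4 and Myh11 were higher, Lum, Col1a1 and Col3a1 lower, and 4 did not pass, with sums of 330 to 415 and 290 to 368. Of 8 nerve markers, 3 could be tested, Elavl3 was higher, and the sums were 6.21 to 8.65 and 7.03 to 7.97, with Snap25 at 0 counts under the KspCre Tfam f/f label. The alternatives were run for Csf1r, Havcr1, Lcn2, Elavl3 and the called mural cell and fibroblast markers, and not for the other called markers. By edgeR adjusted p, the call of Cspg4 (0.0261) was lost without Tfam f/f-labelled replicate 1 (0.053). It was also lost without any 1 KspCre Tfam f/f-labelled replicate (0.064 to 0.0797), with upper quartile scaling (0.0572) and without scaling factors (0.784). Rgs5 (0.00867) was not called without scaling factors (0.293), in a range of 0.00053 to 0.293. Lum (0.0276) was lost without Tfam f/f-labelled replicate 1 (0.0511) or 2 (0.0761) or KspCre Tfam f/f-labelled replicate 2 (0.108) or 3 (0.0952), and Elavl3 (0.0155) without KspCre Tfam f/f-labelled replicate 3 (0.0597). Without Tfam f/f-labelled replicate 3, Csf1r was called higher (0.00266). The adjusted p ranged over the alternatives from 0.00156 to 0.784 for Cspg4, 0.00513 to 0.108 for Lum, 0.00273 to 0.0597 for Elavl3 and 0.00266 to 0.653 for Csf1r. Divided by their mean under the Tfam f/f label, the macrophage sum ran from 0.522 in replicate 2 to 1.69 in replicate 3, and the injury sum from 0.44 to 1.73. Unc5b ran from 0.964 to 1.02 in the same libraries, Lhfpl2 from 0.985 to 1.02, Rin1 from 0.9 to 1.07 and Samd5 from 0.856 to 1.19. Samd5 was highest in replicate 3, as both sums were. The members were chosen for little spread, unlike injury markers, so these ranges are a description. The part of these cells in the members' differences was not tested.

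**Figure D3:**
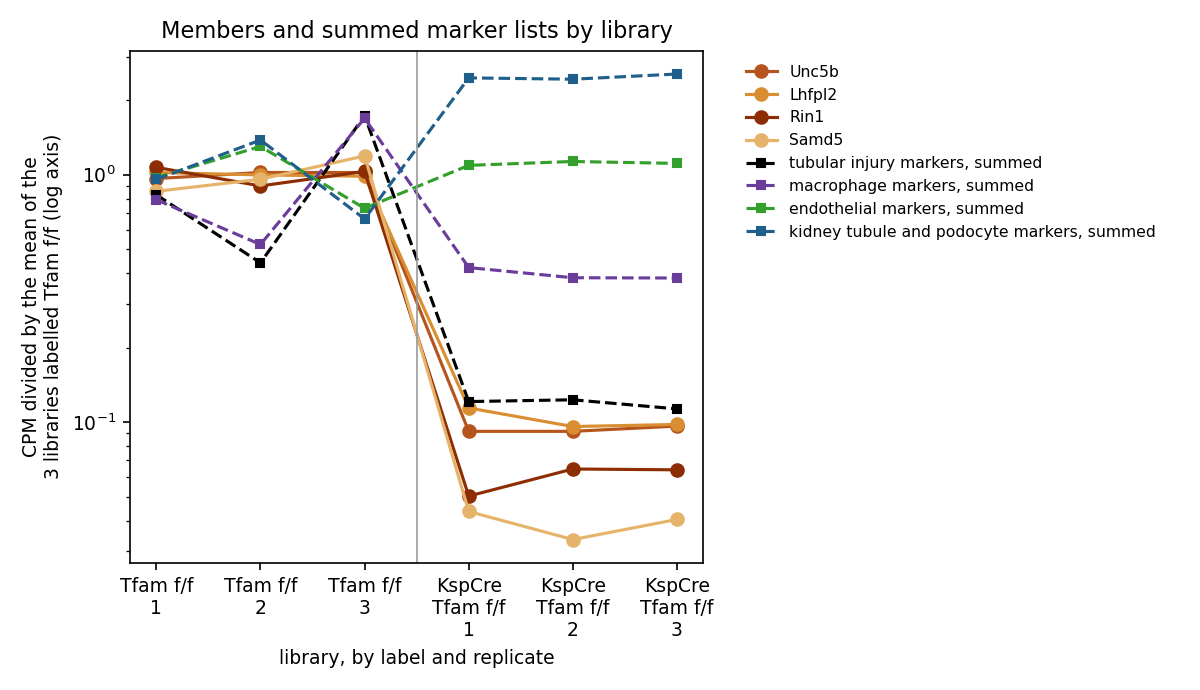
CPM of each member and of 4 summed marker lists in every library, divided by the mean of the 3 libraries labelled Tfam f/f (log axis). On the left the members, chosen for little spread, stay between 0.856 and 1.19, and the sum of the injury markers runs from 0.44 to 1.73. On the right the members lie between 0.0335 and 0.114 and the endothelial sum between 1.09 and 1.13.

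The genes with the most similar profile were found by the Euclidean distance between log2 CPM profiles over the 6 libraries, each centred on its own mean, among 12985 other genes. Unc5b and Lhfpl2 were near each other (distance 0.296), while Lhfpl2 and Samd5 were the farthest pair of members (1.71). Besides Lhfpl2, Unc5b was closest to Prune2 (0.304) and Fam129a (0.382). Lhfpl2 was closest to Fam129a (0.168), then to Prune2 (0.275) and Unc5b. Fam129a, which encodes the stress-responsive protein Niban, had 206, 198 and 201 normalized CPM under the Tfam f/f label and 24.0, 22.1 and 19.8 in the others. Its level was thus flat within the first group, as that of Lhfpl2 was.

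Rin1 was closest to Atf5 (0.157), which encodes a transcription factor, then to Mthfd2 (0.337), an enzyme of mitochondrial one-carbon metabolism, and Aldh18a1 (0.491), an enzyme of proline synthesis. Atf5 had 193, 160 and 166 normalized CPM under the Tfam f/f label and 9.07, 11 and 10.5 in the others. Like Rin1, Atf5 was highest in replicate 1 of the first group and lowest in replicate 1 of the second. Samd5 had no neighbour as near: Nupr1, a stress-induced nuclear protein, was at 0.62, Eno2, a glycolytic enolase, at 0.626 and Stc2, a secreted glycoprotein, at 0.654. Stc2 had 50.7, 41.7 and 74.8 normalized CPM under the Tfam f/f label, high in replicate 3 as Samd5 was. The nearer genes Nupr1 (256, 195 and 216) and Eno2 (35.1, 31.6 and 34.3) were instead highest in replicate 1 of that group. These distances over 6 libraries are dominated by the difference between the groups and are a description.

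Of 23 tested genes of the netrin and UNC5 pathway beside Unc5b, 5 were higher and 4 lower under the KspCre Tfam f/f label and 14 did not pass. By comparison, 21.3% of the tested genes as a whole were higher and 24.9% lower. The list had a median log2 fold change of 0.12 against -0.03 over all tested genes. Ntn1, which encodes the ligand netrin-1, went the other way from its receptor. It had 31.7, 43.6 and 29.6 normalized CPM under the Tfam f/f label and 115, 121 and 131 under the KspCre Tfam f/f label, 3.49-fold higher (SE 0.16 in log2, edgeR adjusted p = 0.00028). The groups did not overlap. Ntn4, which encodes another netrin, was 1.35-fold lower, in the same direction as Unc5b (edgeR adjusted p = 0.0264). Its means were 153 ± 21 and 114 ± 5.99 normalized CPM (SD, n = 3 each), and the alternatives were not run for it by name. Of 4 tested netrin genes, 1 was higher, 1 lower and 2 did not pass. Without scaling factors the list had 2 higher and 9 lower genes.

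Among the receptors, Unc5c was 3.05-fold higher under the KspCre Tfam f/f label (edgeR adjusted p = 0.00748). Unc5a and Neo1, the netrin receptor neogenin, did not pass, with 69.7 ± 0.688 and 70.1 ± 1.38 normalized CPM of Neo1 (SD, n = 3 each). Unc5d and Dcc had too few counts to test. Per length, Unc5b made up 98.3% ± 0.286 of the summed level of Unc5a, Unc5b, Unc5c and Unc5d under the Tfam f/f label and 74.0% ± 3.05 in the others (SD, n = 3 each). It was the leading UNC5 receptor gene in both groups.

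Slit2, which encodes a guidance ligand of ROBO receptors, was 1.56-fold higher under the KspCre Tfam f/f label, and Slit3 2.39-fold lower. Robo4, an endothelial receptor that binds UNC5B, did not pass (17.5 ± 2.53 and 20.2 ± 0.966 normalized CPM, SD, n = 3 each), but was called higher without Tfam f/f-labelled replicate 2 (edgeR adjusted p = 0.0286, in a range of 0.0286 to 0.456). Flrt3, which encodes a membrane ligand of UNC5 receptors, was 1.97-fold higher there (edgeR adjusted p = 0.0112), but was not called without scaling factors (0.0775), in a range of 0.00126 to 0.0775. Dapk1, a death-associated kinase that acts below UNC5B, was 1.48-fold lower, and Trp53, the gene of p53, 1.58-fold lower. The call of Slit3 (edgeR adjusted p = 0.0168) was lost without Tfam f/f-labelled replicate 1 (0.0678) and without KspCre Tfam f/f-labelled replicates 2 (0.068) or 3 (0.0653), the range over all alternatives being 0.000522 to 0.068. Slit2 (0.00229) was not called without scaling factors (0.113), in a range of 1.29e-06 to 0.113. The count of higher genes was 10 without Tfam f/f-labelled replicate 2, and that of lower genes 2 without Tfam f/f-labelled replicate 1 or KspCre Tfam f/f-labelled replicate 2 or 3.

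Little of the LHFPL family was measurable beside Lhfpl2. Of 5 other genes, 2 had enough counts to test. Lhfp had 22 ± 3.7 normalized CPM under the Tfam f/f label and 14.9 ± 2.85 in the others (1.47-fold lower, edgeR adjusted p = 0.0347). Lhfpl1 stood at 0.151 ± 0.0524 and 0.453 ± 0.105 (2.97-fold higher, adjusted p = 0.0167, SD, n = 3 each). Per length, Lhfpl2 held 62.1% ± 3.82 of the family's summed level under the Tfam f/f label and 19.0% ± 1.70 in the others, where Lhfp was above it (2.92 ± 0.558 against 0.746 ± 0.072 normalized CPM per kilobase). Both calls were lost when certain single libraries were left out. That of Lhfp was lost without Tfam f/f-labelled replicate 1 (0.0621) or 2 (0.0982) and without KspCre Tfam f/f-labelled replicate 2 (0.127) or 3 (0.108), in a range of 0.00239 to 0.127. That of Lhfpl1 was lost without Tfam f/f-labelled replicate 1 (0.0528) or KspCre Tfam f/f-labelled replicate 3 (0.0665), in a range of 0.0156 to 0.0665, and without KspCre Tfam f/f-labelled replicate 2 it was not tested.

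Among the partners of RIN proteins, no gene changed as much as Rin1, which had been chosen for its large difference. Of 24 tested, 9 were higher and 2 lower under the KspCre Tfam f/f label and 13 did not pass, where 21.3% of all tested genes were higher and 24.9% lower. The other RIN genes Rin2, Rin3 and Rinl did not pass, with 68.2 ± 13.8 and 74.3 ± 3.94 normalized CPM of Rin2 (SD, n = 3 each). Rin2 was called higher without Tfam f/f-labelled replicate 3 (edgeR adjusted p = 0.0431, in a range of 0.0431 to 0.9). Per length, Rin1 held 45.3% ± 4.13 of the summed level of these 4 genes under the Tfam f/f label and 4.58% ± 0.578 in the others. Rab5a, Rab5b and Rab5c, the GTPases that RIN1 activates, were 1.23-fold, 1.42-fold and 1.35-fold higher under the KspCre Tfam f/f label (edgeR adjusted p = 0.0446, 0.0166 and 0.0426). These calls depended on the scaling: without factors none was called, and the log2 fold changes were -0.13, 0.09 and 0.01, so that Rab5a changed sign. All 3 calls were also lost without Tfam f/f-labelled replicate 1 and without any 1 of the KspCre Tfam f/f-labelled replicates, and that of Rab5a without Tfam f/f-labelled replicate 3. Rab5a and Rab5c were not called either with upper quartile scaling (0.112 and 0.0626), with no low-count filter (0.0711 and 0.0522) or with the replicate number as a block (0.101 and 0.0894). The adjusted p ranged over the alternatives from 0.0107 to 0.335 for Rab5a, 0.00298 to 0.502 for Rab5b and 0.0093 to 0.938 for Rab5c.

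Eea1, a RAB5 effector of endosomes, was 1.68-fold higher there, and Braf, a RAF kinase that competes with RIN1 for RAS, 1.59-fold. Rab31 was 1.73-fold lower and Nras 1.43-fold lower, while Hras and Abl1 did not pass. Nras (edgeR adjusted p = 0.0215) was not called without KspCre Tfam f/f-labelled replicate 1 (0.0683), 2 (0.0842) or 3 (0.0645), in a range of 0.00305 to 0.0842. The count of higher genes was 3 without Tfam f/f-labelled replicate 1 or any 1 of the KspCre Tfam f/f-labelled replicates, and that of lower genes 1 without any of the latter. Without scaling factors it was 1 higher and 7 lower, with Braf (0.112, in a range of 7.08e-06 to 0.112) and Eea1 (0.102, in a range of 0.000569 to 0.102) no longer called. The median log2 fold change of all genes was then -0.46.

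Sterile alpha motif proteins, Eph receptors and ephrins counted 14 of 30 tested genes lower under the KspCre Tfam f/f label, 4 higher and 12 not passing. The median log2 fold change was -0.28, against -0.03 over all tested genes, and 24.9% of all tested genes were lower. Of the 12 sterile alpha motif genes, 7 were lower and 2 higher. Samd14 was 3.44-fold lower, while Samd8, a sphingolipid enzyme, and Samd9l, an interferon-responsive gene, were 2.26-fold and 2.24-fold higher. Of 10 Eph receptors, 3 were lower and 2 higher. Ephb2 had 42.5, 34.1 and 35.5 normalized CPM under the Tfam f/f label and 14.4, 12.8 and 12.7 in the others, 2.81-fold lower with no overlap (edgeR adjusted p = 0.000198), and Epha2 was 2.30-fold lower. Of 8 ephrins, the ligands of these receptors, Efna1, Efna2, Efna4 and Efna5 were lower and 4 did not pass. The call of Efna2 (edgeR adjusted p = 0.0203) was lost without Tfam f/f-labelled replicate 1 (0.067) or KspCre Tfam f/f-labelled replicate 1 (0.0818), 2 (0.0651) or 3 (0.0515), in a range of 0.0055 to 0.0818. Ephb6 had the lowest log2 fold change of the list beside Samd5 (-2.01), but it was at -1.39 without Tfam f/f-labelled replicate 3, above Samd14 (-1.63) and Ephb2 (-1.53) without that library. Ephb3 was 1.67-fold higher (adjusted p = 0.0156), but was not called without KspCre Tfam f/f-labelled replicate 2 (0.06) or 3 (0.0603) or without scaling factors (0.276), in a range of 0.00102 to 0.276. The lower count was 9 without KspCre Tfam f/f-labelled replicate 3, and the higher count 2 without that library or replicate 2.

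**Figure D4:**
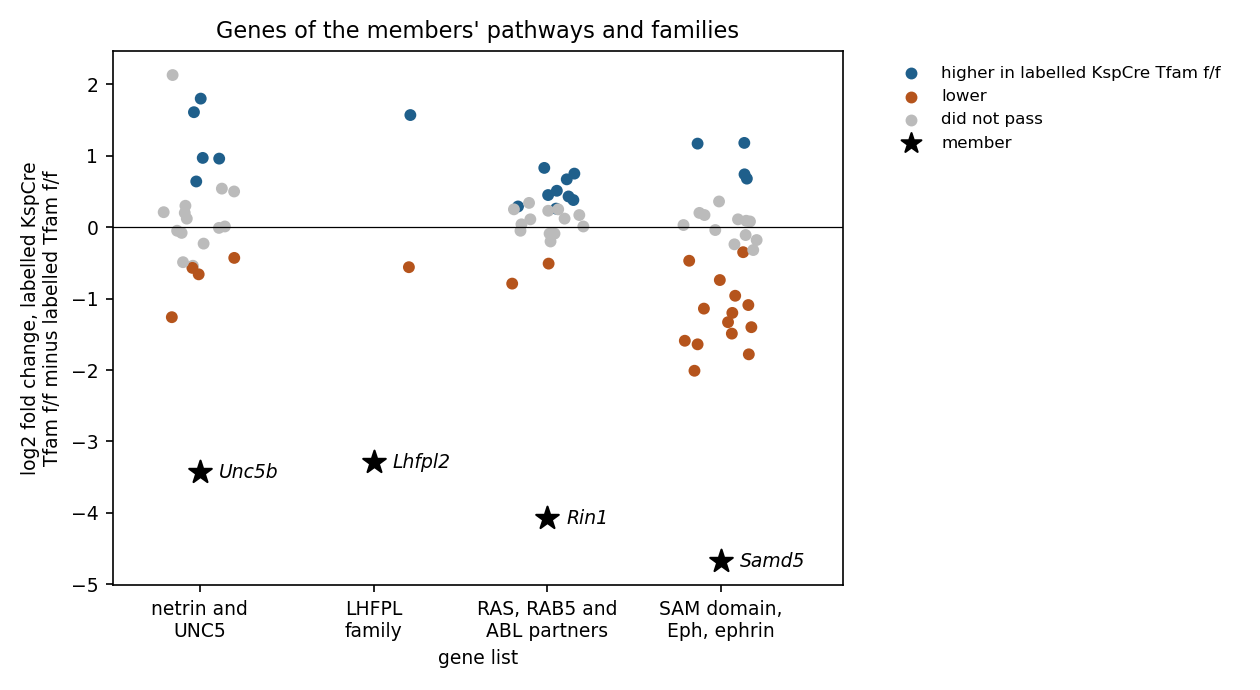
Log2 fold change of each tested gene in the 4 pathway and family lists (blue, higher under the KspCre Tfam f/f label; orange, lower; grey, did not pass) with the member of each as a star. Each star lies below every other gene of its list, at -3.28 to -4.67, where the lowest other gene is at -2.01. The members were chosen for large differences and the other genes were not, so this position follows from the choice.

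Of 14 tested genes within 100 kb, 5 were lower and 3 higher under the KspCre Tfam f/f label and 6 did not pass, where 46.2% of all tested genes were called, 24.9% lower and 21.3% higher. Beside Unc5b, Slc29a3, which encodes a nucleoside transporter, was 2.36-fold higher, opposite to Unc5b (edgeR adjusted p = 0.00527). Beside Samd5, Stxbp5, a regulator of vesicle fusion, was 1.48-fold higher (0.00344), though not without scaling factors (0.358, in a range of 3.19e-05 to 0.358). Beside Lhfpl2, Scamp1 did not pass (63.8 ± 6.03 and 69.6 ± 0.995 normalized CPM, SD, n = 3 each). Rin1 lies among many genes, and 11 were tested. Lower there were Cnih2 (6.31-fold, at 1.38 ± 0.489 and 0.204 ± 0.0959 normalized CPM), Slc29a2 (2.45-fold), Tmem151a (2.29-fold), Pacs1 (1.99-fold) and Brms1 (1.46-fold). Brms1 ends 564 bases from Rin1, and B4gat1, the next tested gene on that side, was 1.29-fold higher. Brms1 (edgeR adjusted p = 0.0125) was not called without KspCre Tfam f/f-labelled replicate 1 (0.0565) or 2 (0.0512), in a range of 0.0014 to 0.0565. B4gat1 (0.0232) was not called without KspCre Tfam f/f-labelled replicate 1 (0.076), 2 (0.074) or 3 (0.0748) and was at a log2 fold change of -0.05 without scaling factors (0.696), in a range of 0.0172 to 0.696. Slc29a2 had 13.5, 12.9 and 13.3 normalized CPM under the Tfam f/f label and 5.05, 5.63 and 5.57 in the others, with no overlap. Without scaling factors 1 of the 14 was higher and 8 were lower.

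**Figure D5:**
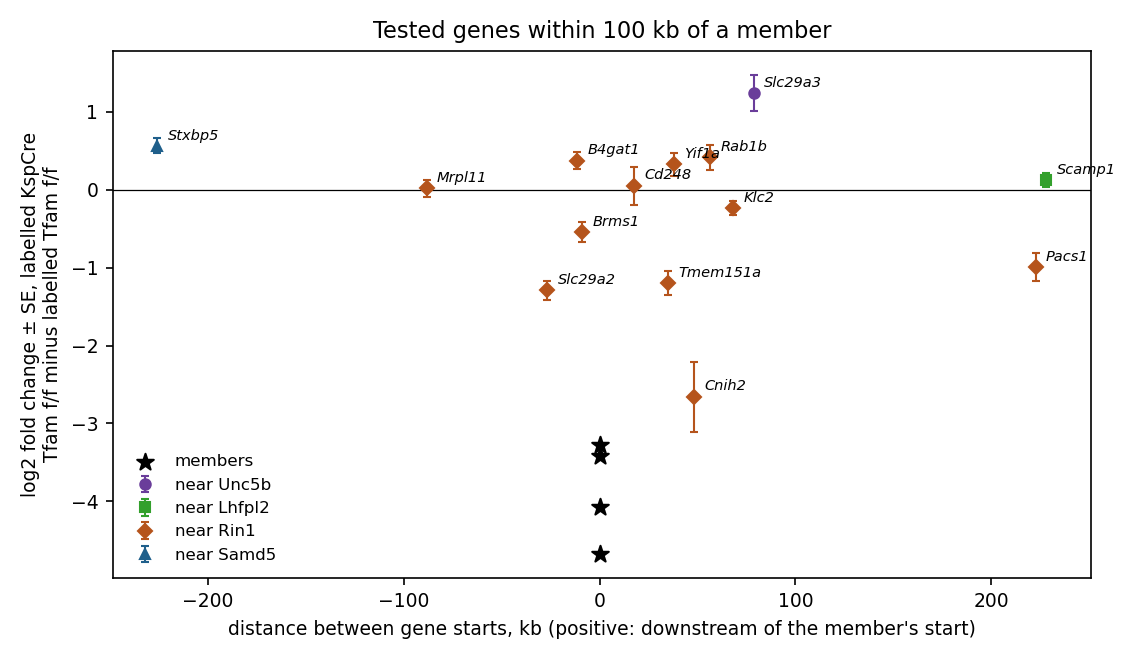
Log2 fold change (± SE) of the 14 tested genes within 100 kb of a member against the distance between gene starts, with the members as stars at 0. All 14 lie above the members, which were chosen for large differences, and those near Rin1 run from -2.66 to 0.42.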

How the data were processed

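Whole-kidney poly A+ RNA was sequenced in 6 libraries, 3 per label. The libraries keep strand, per the labels' protocols. The authors deposited an unnormalized count for each gene. Build mm10, HTSeq 0.11.0, STAR 2.4.1d, Trim Galore and FastQC are named in the submitters' processing notes, and settings, strand option and annotation release were not given in the sources used here. The 5 summary lines (16.0% to 20.4% of each file's sum) were left out. Gene positions came from GENCODE M21, which held 54079 of the 54146 identifiers without their version, and promoters from RefSeq, GRCm38.p6.

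Counts were fitted with edgeR 4.0.16 in R 4.3.3: filterByExpr (minimum count 10, total 15), TMM factors, robust quasi-likelihood test, Benjamini-Hochberg adjustment over 17308 genes, called below 0.05. Each SE is the size of the log2 fold change over the root of F. DESeq2 1.42.0, limma voom 3.58.1, other scalings and filters, a block for replicate number, and leaving out single libraries were alternatives. The fit was tested on simulated counts. Levels per length use the union of annotated exons.

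The members and lists were chosen with earlier results of these data known. Named are the members, up to 3 called genes per direction and list with the smallest p, the 3 genes most like each member (mean log2 CPM of at least 1, predicted genes left out; log2 CPM uses a prior count of 2), tested neighbours, Tfam, Havcr1 and Lcn2. Other genes named were chosen after their values were seen. Ntn3 was not used here. Some genes that the rule or lists hold are not reported here. Libraries of a group differed beyond sampling noise (chi-square per degree of freedom 7.13 to 165), so none was treated as a duplicate.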

Additional observations from a re-analysis of the deposited data

How the results depend on the processing

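The log2 fold changes of the members kept their sign in every alternative run, between -3.85 and -3.39 for Unc5b, -3.71 and -3.23 for Lhfpl2, -4.50 and -3.94 for Rin1 and -5.11 and -4.54 for Samd5. With upper quartile scaling Unc5b was at -3.50. Without scaling factors they were -3.85, -3.71, -4.50 and -5.11 in that order, with the median of all genes at -0.457 in place of -0.028 and -0.104 with upper quartile scaling. Without factors 1680 genes were higher and 8519 lower, where TMM gave 3690 and 4310, a share of 16.5% higher among called genes against 46.1%. The netrin list then had 2 higher and 9 lower, the RIN partners 1 and 7, the sterile alpha motif and Eph list 2 higher, and the neighbouring genes 1 and 8. The coefficients of variation in the labelled Tfam f/f group were then 8.49% for Unc5b, 6.34% for Lhfpl2 and 13.9% for Rin1, and with RLE scaling that of Lhfpl2 was 2.5%. The RIN partners had 5 higher genes with upper quartile scaling and 5 with no low-count filter. A filter of 1 CPM in 3 libraries left 0 higher LHFPL genes, since Lhfpl1 was no longer tested.

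The shared replicate numbers showed no sign of pairing the samples (correlation of same-numbered deviations -0.174, -0.0702 and -0.0708). Deviations from means of 3 libraries cannot exclude a pairing. With the number as a block, 3227 genes were higher and 3586 lower, the RIN partners had 5 higher, and the LHFPL family 0 lower (Lhfp, adjusted p = 0.058).

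Leaving out each library in turn gave 2276 to 4652 higher and 2822 to 4942 lower genes. The higher counts were 2321, 2276 and 2299 without KspCre Tfam f/f-labelled replicates 1, 2 and 3, and the lower counts 2822 and 2873 without replicates 2 and 3. Over the same runs the higher and lower counts were 4 to 10 and 2 to 5 for the netrin list, 0 to 1 and 0 to 1 for the LHFPL family, 3 to 13 and 1 to 2 for the RIN partners, 2 to 5 and 9 to 14 for the sterile alpha motif and Eph list, and 2 to 3 and 4 to 5 for neighbouring genes. The members ranged from -3.44 to -3.39 (Unc5b), -3.36 to -3.23 (Lhfpl2), -4.13 to -3.94 (Rin1) and -4.76 to -4.54 (Samd5). For the 64 other genes run, direction and call were kept in 808 values, the call was lost in 64 and gained in 5. The direction turned in 15. Without scaling factors these were Rab5a (-0.13), B4gat1 (-0.05), Csf1r (-0.13), Neo1 (-0.42), Unc5a (-0.12), Robo4 (-0.21), Rin2 (-0.32), Rinl (-0.32), Hras (-0.38) and Scamp1 (-0.30), and Rin3 and Abl1 were then called lower (adjusted p = 0.00613 and 0.00323), as were Neo1 (0.00688), Hras (0.0139) and Scamp1 (0.0387). With upper quartile scaling Neo1 was at -0.07 and Hras at -0.03, and with the 1 CPM filter Neo1 was at -0.00. With single libraries left out, Rinl ranged from -0.03 (without KspCre Tfam f/f-labelled replicate 1) to 0.22, and Hras from -0.04 (without Tfam f/f-labelled replicate 3) to 0.14. The call of Havcr1 was lost with no low-count filter (adjusted p = 0.0615). The causes were not tested. Depth limits Rin1 and Samd5 under the KspCre Tfam f/f label, at 66 to 119 counts.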
